A study of Mus musculus with 6 samples.

Results

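The 10 genes described here are Nfe2l2, which encodes the transcription factor NRF2, its inhibitor Keap1, the NRF2 target genes Hmox1, Nqo1, Gclc, Gclm, Txnrd1 and Srxn1, and the metallothioneins Mt1 and Mt2. They were chosen by name, with earlier results of these data known, and all 10 were among the 25572 genes of the table. RNA was sequenced from hind limb skeletal muscle of mice on day 3 after hind limb ischaemia, an operation that cuts the blood supply of the leg. The groups were 3 mice without a working gene for histidine decarboxylase, the histamine-making enzyme (labelled HDCKO, Hdc-/- in the protocol), and 3 wild-type mice (labelled WT), with 1 library from each mouse. Ischaemia is on the label of all 6 samples and unoperated muscle was not analysed here, so HDCKO levels are read against WT muscle that was itself injured. Values are FPKM, fragment counts scaled to gene length and to the size of the library, and 3 values of a group always stand in the order of replicates 1, 2 and 3. The labels state neither the age, strain and sex of the mice nor which leg or muscle was taken.

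NRF2 switches on genes that protect cells from oxidants and reactive chemicals. KEAP1 binds NRF2 and, with the CUL3 ubiquitin ligase, has it degraded, until oxidants modify cysteines of KEAP1 and NRF2 accumulates. NRF2 then pairs with a small MAF protein at a DNA motif called the antioxidant response element (ARE). Its targets make and recycle glutathione and thioredoxin, supply NADPH and break down haem. Metallothioneins are small cysteine-rich proteins that hold zinc and copper. Their genes are switched on through metal response elements (MREs) by the zinc-sensing factor MTF1, and also by glucocorticoids, inflammatory cytokines and oxidants. Hmox1, the haem-degrading enzyme, is also strongly transcribed in macrophages that take up red cells or debris.

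The start-site windows of the members show which of these motifs lie close to each gene. RefSeq windows of 300 bases, from 250 bases before a start site to 50 after it, were given for 8 of the 10 genes in build GRCm38.p6, and each matched a single place on its chromosome in GRCm39, whose coordinates are given here. The windows of the metallothionein pair are shown because these genes lie next to each other on chromosome 8 and fell together in HDCKO. Capitals mark the MRE core, searched as TGCACNC or TGCGCNC on both strands.
Mt2, chr8:94898996-94899295, plus strand: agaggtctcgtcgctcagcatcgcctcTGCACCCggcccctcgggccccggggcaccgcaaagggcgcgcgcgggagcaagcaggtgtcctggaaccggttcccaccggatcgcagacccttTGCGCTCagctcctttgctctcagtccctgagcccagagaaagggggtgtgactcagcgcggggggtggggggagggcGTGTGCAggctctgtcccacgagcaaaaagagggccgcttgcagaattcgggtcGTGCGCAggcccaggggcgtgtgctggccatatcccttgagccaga
Mt1, chr8:94905467-94905766, plus strand: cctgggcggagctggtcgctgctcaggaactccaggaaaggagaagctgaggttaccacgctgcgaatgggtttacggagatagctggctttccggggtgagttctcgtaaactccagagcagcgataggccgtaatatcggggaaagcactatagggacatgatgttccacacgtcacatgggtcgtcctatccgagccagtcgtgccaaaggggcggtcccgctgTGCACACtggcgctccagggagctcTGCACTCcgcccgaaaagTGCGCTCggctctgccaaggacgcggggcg
Mt2 held 4 MRE cores and Mt1 held 3. The window of Gclm also held 3 and that of Srxn1 held 1, so this number was not particular to the metallothioneins. Of all 32851 windows in the table, 1.97% held at least 3 and 0.517% at least 4.

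The ARE core, searched as TGACNNNGC on both strands, was in 12.4% of all 32851 windows. The windows of Gclm and Srxn1, which changed most among the NRF2 targets of the 10 genes after Hmox1, are shown with it in capitals.
Gclm, chr3:122038956-122039255, plus strand: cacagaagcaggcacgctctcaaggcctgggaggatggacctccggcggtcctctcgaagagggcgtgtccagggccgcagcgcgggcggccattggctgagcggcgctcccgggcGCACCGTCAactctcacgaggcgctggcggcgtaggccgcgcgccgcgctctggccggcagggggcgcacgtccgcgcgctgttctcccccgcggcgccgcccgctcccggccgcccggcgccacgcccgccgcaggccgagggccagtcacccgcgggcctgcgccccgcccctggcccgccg
Srxn1, chr2:151947194-151947493, plus strand: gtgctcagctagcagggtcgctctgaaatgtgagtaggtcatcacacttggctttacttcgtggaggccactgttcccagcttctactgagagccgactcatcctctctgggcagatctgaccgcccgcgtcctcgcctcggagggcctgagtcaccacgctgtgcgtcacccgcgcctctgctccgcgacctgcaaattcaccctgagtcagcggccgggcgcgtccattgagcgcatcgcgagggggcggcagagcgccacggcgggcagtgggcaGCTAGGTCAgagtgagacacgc
Gclm held 1 match, 134 bases before its start site on the minus strand (TGACGGTGC), and Srxn1 held 1, which began 28 bases after its start site on the minus strand (TGACCTAGC). Nfe2l2 held 1 match (TGACTCCGC, 240 bases before the start site), Mt2 held 1 (TGACTCAGC, 79 bases before) and 1 of 3 windows of Txnrd1 held 1 (TGACAAAGC, 92 bases before). The windows of Keap1, Nqo1 and Mt1 held none. A match here is a run of letters, not a measured binding site, and elements outside these windows were not searched. Other spellings were not searched either, such as the tgagtcagc before the start site in the printed Srxn1 window.

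The libraries differed far beyond these genes. The table gives no counts, and the depth was roughly 29500000 to 37500000 fragments per library, an estimate that rests on the 10 to 20 single-exon genes per library whose low FPKM values shared the most frequent step. Hdc itself was 1.22, 2.46 and 2.52 FPKM in the HDCKO mice, against 7.49, 7.72 and 8.17 in the WT mice, so its transcript was reduced and not absent. Where its reads lie relative to the deleted part of the gene cannot be read from FPKM. The tissue label held for HDCKO, where 10 fibre markers summed to 38368 to 71847 FPKM. In WT the same markers summed to 316 to 1255 FPKM, none of them at 0. Summed neutrophil markers (8 genes) were 32.4 to 69.6 FPKM in HDCKO and 2458 to 14434 in WT, and summed macrophage markers (10 genes) were 261 to 2172 in HDCKO and 2672 to 3052 in WT. Summed fibroblast markers (7 genes) were 1204 to 1881 FPKM in HDCKO and 2399 to 4562 in WT. Summed endothelial markers (6 genes) were 169 to 240 in HDCKO and 324 to 476 in WT. Summed mast cell markers (6 genes) overlapped, with 25.2 to 46.7 in HDCKO and 28.9 to 54.4 in WT. All these sums except that of mast cell markers differed between the groups as the genes below did. Their part in the results was not tested except where a value is given. In whole muscle, fewer cells of a type and less RNA per cell cannot be told apart. Of 13288 genes tested, 5658 were lower and 2362 higher in HDCKO (limma adjusted p under 0.05), and 3457 and 3532 with median-of-ratios scaling. A typical gene had a log2 change of -0.50 as deposited (median), of -0.03 under median-of-ratios scaling and of -0.12 under quantile normalization, so -0.50 is the level of a typical gene in what follows.

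Most of the 10 genes were lower in HDCKO muscle. Hmox1 fell most, to 6.08% of its WT mean, followed by Mt2 (14.8%), Srxn1 (18.3%), Gclm (21.7%) and Mt1 (23.4%). Gclc, Nfe2l2 and Txnrd1 fell to 40.8%, 42.2% and 42.2%. Keap1 rose to 135% of the WT mean, and Nqo1 did not pass the test. In all, 8 of 10 genes fell and 1 rose, where 42.6% of all genes tested were called lower and 17.8% higher. In the same 8 genes every HDCKO library was below every WT library, and in Keap1 every HDCKO library was above, against 51.4% and 21.2% of all genes tested. The median log2 change of the 10 was -1.62, beside -0.50 for all genes tested. On the log2(FPKM + 0.5) scale of the test, the 8 genes that fell stayed negative under 3 other ways of scaling the libraries, and all passed except Txnrd1 with median-of-ratios scaling (log2 change -0.67, limma adjusted p = 0.0515). Keap1 passed under each of these scalings (log2 change 0.73 to 0.94).

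**Figure D1:**
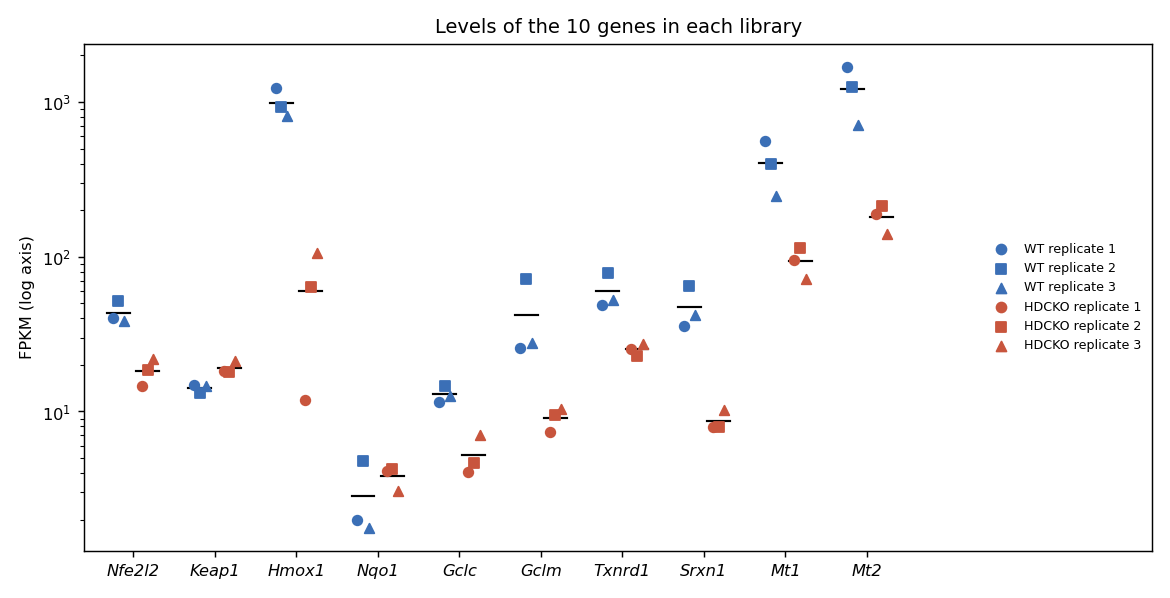
FPKM (log axis) of the 10 genes in each of the 6 libraries; colours mark the group, symbols the replicate and black bars the group mean. Hmox1 is 816 to 1231 FPKM in WT and 11.9 to 105 in HDCKO, Keap1 is slightly higher in HDCKO, and the groups overlap in Nqo1.

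**Figure D2:**
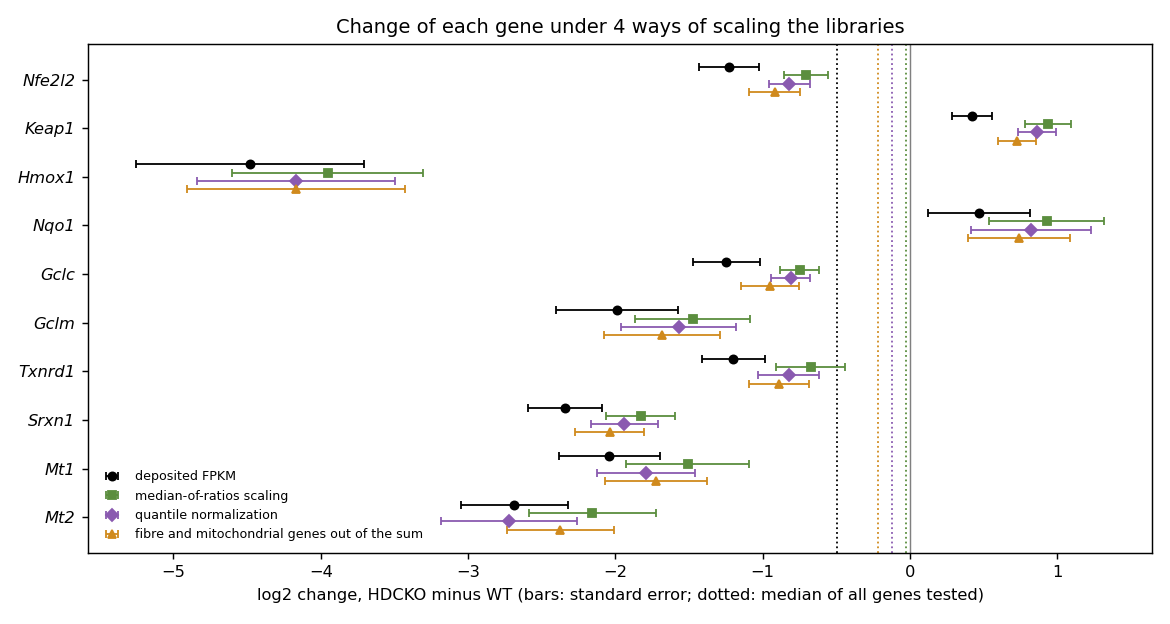
Log2 change (HDCKO minus WT) of each gene on the deposited FPKM and under 3 other scalings; bars are standard errors and dotted lines the median of all genes tested under each scaling. The 8 genes that fell lie left of 0 under all 4 scalings, and Keap1 and Nqo1 lie to the right of 0.

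The factor and its inhibitor moved in opposite directions. Nfe2l2 was 14.6, 18.6 and 21.9 FPKM in the HDCKO mice, against 40.2, 51.8 and 38.7 in the WT mice. Every WT library was well above every HDCKO library, with WT replicate 2 the highest. The means were 18.4 ± 3.65 and 43.5 ± 7.17 FPKM (SD, n = 3 each), a log2 change of -1.23 (SE 0.20, limma adjusted p = 0.00533). Nfe2l2 (ENSMUSG00000015839) lies on chromosome 2, 75504739 to 75534985, minus strand, in GRCm39. Keap1 was 18.3, 17.9 and 21.4 FPKM in the HDCKO mice, against 14.8, 13.1 and 14.5 in the WT mice. The groups did not overlap but lay close together, with means of 19.2 ± 1.90 and 14.2 ± 0.929 FPKM (SD, n = 3 each) and a log2 change of 0.42 (SE 0.14, limma adjusted p = 0.0384). That call was lost without HDCKO replicate 1 (limma adjusted p = 0.0574), HDCKO replicate 2 (0.0877), or with 1 WT mouse left out (0.0925 without replicate 1, 0.116 without replicate 2 and 0.0963 without replicate 3). Keap1 (ENSMUSG00000003308) lies on chromosome 9, 21141026 to 21150679, minus strand.

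A ratio of 2 genes within a library does not depend on how libraries are scaled. The ratio of Nfe2l2 to Keap1 was 0.801, 1.04 and 1.03 in the HDCKO mice, against 2.71, 3.95 and 2.66 in the WT mice. All 3 WT muscles thus held clearly more Nfe2l2 than Keap1 transcript per length, and the HDCKO muscles about equal amounts. The log2 difference of the ratio was -1.65 (exact two-sided permutation p = 0.1, also after adjustment over the 4 ratios computed, and 0.1 is the smallest p that 3 against 3 can give).

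**Figure D3:**
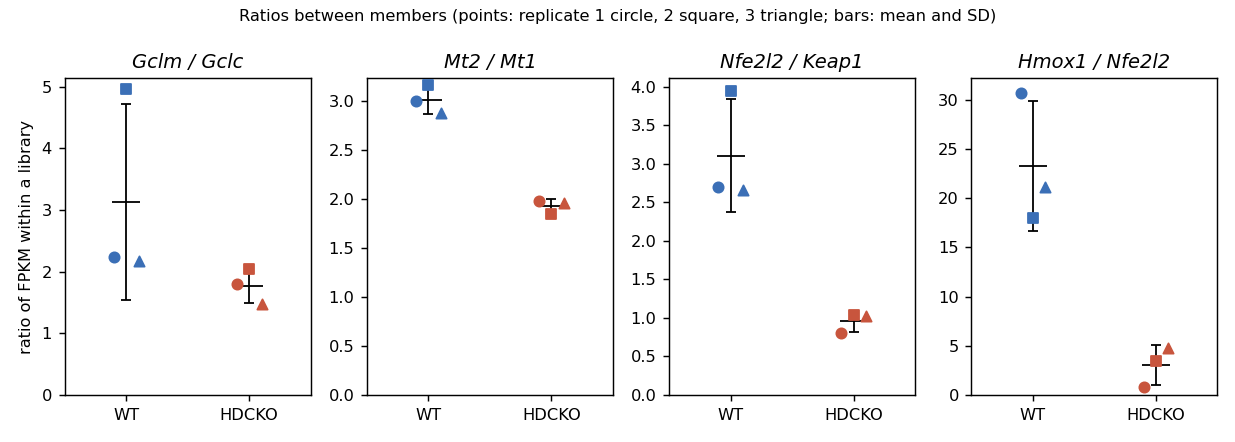
Ratios of FPKM within each library for 4 pairs of genes, on linear axes from 0; points are libraries, bars the mean and SD of 3 mice. The groups do not overlap in any of the 4 ratios, each of which is lower in HDCKO, and WT replicate 2 stands apart from the other WT libraries in Gclm over Gclc.

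Genes around the factor gave shares near those of all genes. Of 11 genes that degrade, pair with, compete with or replace NRF2, 10 had values high enough to test, 5 fell (50%, against 42.6% of all genes tested) and 3 rose (30% against 17.8%), with a median log2 change of -0.20. Bach1, a repressor that competes with NRF2 at AREs, fell by 1.47 on the log2 scale (7.05 ± 2.23 against 20.1 ± 3.999 FPKM, limma adjusted p = 0.00687). The small MAF partners Mafg (-1.03) and Maff (-1.44) fell as well, as did, outside the rule for naming genes, Mafk (-0.46) and Gsk3b (-0.43). The genes that rose were Cul3, the ligase scaffold that works with KEAP1 (0.58), Btrc, part of a second NRF2-degrading ligase (0.49), and Nfe2l1, a relative of NRF2 that controls proteasome genes (0.64). Rbx1, the ring subunit of the CUL3 ligase, was 49.9 ± 1.94 against 49.1 ± 1.49 FPKM (limma adjusted p = 0.873), and Sqstm1, which can draw KEAP1 into autophagy, was 76.0 ± 6.65 against 67.1 ± 16.7 (limma adjusted p = 0.420). The count of 5 lower genes was 1 (Bach1) with median-of-ratios scaling, where Mafg (limma adjusted p = 0.0726), Maff (0.0672), Mafk and Gsk3b no longer passed. Relative to the typical gene, the log2 changes of Mafk (0.03) and Gsk3b (0.07) on the deposited values were not below 0. The 3 that rose numbered 1 without HDCKO replicate 1 or WT replicate 1 and 0 without HDCKO replicate 2 or either of WT replicates 2 and 3, and the 5 that fell numbered 3 without any 1 of these libraries.

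Both subunits of glutamate-cysteine ligase, the rate-limiting enzyme of glutathione synthesis, were lower in HDCKO. Gclc, the catalytic subunit, was 4.09, 4.62 and 7.07 FPKM in the HDCKO mice, against 11.5, 14.5 and 12.7 in the WT mice. HDCKO replicate 3 was the highest of its group and still below every WT library. The log2 change was -1.25 (SE 0.23, limma adjusted p = 0.00677). Gclm, the modifier subunit that raises the enzyme's efficiency, was 7.36, 9.44 and 10.4 FPKM in the HDCKO mice, against 25.7, 72.1 and 27.5 in the WT mice. WT replicate 2 was far above the other WT libraries, and the group means were 9.06 ± 1.55 and 41.8 ± 26.3 FPKM (SD, n = 3 each). The log2 change of Gclm was -1.99 (SE 0.41, limma adjusted p = 0.0101), and -1.52 without WT replicate 2. In GRCm39, Gclc lies on chromosome 9, 77661797 to 77701770, and Gclm on chromosome 3, 122039126 to 122065061, both on the plus strand.

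The ratio of modifier to catalytic subunit was lower in HDCKO. The ratio of Gclm to Gclc was 1.80, 2.04 and 1.47 in the HDCKO mice, against 2.24, 4.96 and 2.17 in the WT mice. The groups did not overlap, though HDCKO replicate 2 and WT replicate 3 lay close together (log2 difference -0.74, exact two-sided permutation p = 0.1, the smallest possible). Without WT replicate 2 the log2 difference was -0.36.

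Other genes of glutathione and thioredoxin, 24 in the list and 22 tested, were lower in 12 cases (54.5%, against 42.6% of all genes tested) and higher in 5 (22.7% against 17.8%), with a median log2 change of -1.02. Glutathione reductase Gsr fell by 1.87, the conjugate exporter Abcc1 by 1.52, the peroxiredoxins Prdx5 and Prdx6 by 1.59 and 1.10, and the stress-induced Sesn2 by 2.47 on the log2 scale. Slc7a11, the cystine importer that feeds glutathione synthesis (chosen after its values were seen), was 0.0898, 0.184 and 0.442 FPKM in the HDCKO mice, against 5.27, 22.4 and 3.14 in the WT mice. It was most abundant in WT replicate 2, and its log2 change was -3.43 (limma adjusted p = 0.00853). Every HDCKO value was below 0.5 FPKM, the constant added before taking logs. That constant narrows the HDCKO spread and makes the log2 change smaller, so the size of the change and its p-value are uncertain. Among the genes that rose was Chac1, which encodes an enzyme that degrades glutathione, with 27.5 ± 6.98 against 2.33 ± 0.602 FPKM (log2 change 3.29, limma adjusted p = 4.7e-04). The mitochondrial thioredoxin reductase Txnrd2 (0.81), mitochondrial thioredoxin Txn2 (0.55), the lipid peroxide-reducing Gpx4 (0.58) and the transferase Gstm1 (0.97) rose too. Gstm1 belongs to a family of similar sequences, so its own value is uncertain. The count of 5 was 3 without HDCKO replicate 2, WT replicate 1 or WT replicate 3, where Txn2 (limma adjusted p from 0.0716 to 0.0859) and Gpx4 (0.0674 to 0.0829) did not pass. Without WT replicate 2 the call of Txn2 was lost as well (limma adjusted p = 0.0637).

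The cytosolic thioredoxin genes among the 10 also fell. Txnrd1, which encodes the selenoenzyme that keeps thioredoxin reduced, was 25.4, 22.9 and 27.5 FPKM in the HDCKO mice, against 48.7, 78.5 and 52.2 in the WT mice. The HDCKO libraries lay close together, and WT replicate 2 was the highest (log2 change -1.20, SE 0.22, limma adjusted p = 0.00667). Srxn1 encodes sulfiredoxin, which repairs over-oxidized peroxiredoxins. Its FPKM was 7.98, 7.91 and 10.2 in the HDCKO mice, against 35.6, 64.6 and 42.0 in the WT mice. The means were 8.70 ± 1.30 and 47.4 ± 15.2 FPKM (SD, n = 3 each), so WT held 5.45 times the HDCKO level. The log2 change of -2.34 (SE 0.25) had the smallest adjusted p of the 10 genes (limma adjusted p = 0.00125). In GRCm39, Txnrd1 lies on chromosome 10, 82669785 to 82733546, and Srxn1 on chromosome 2, 151947436 to 151957687, both on the plus strand.

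Nqo1 was the member that did not pass the test. It encodes a quinone reductase that is widely used as an NRF2 readout, and it was the least abundant of the 10 genes in both groups. Its FPKM was 4.14, 4.27 and 3.08 in the HDCKO mice, against 2.00, 4.78 and 1.77 in the WT mice. WT replicate 2 was above all 3 HDCKO libraries and the other WT libraries were below them, so the groups overlapped. The log2 change was 0.47 (SE 0.35, limma adjusted p = 0.275). Without WT replicate 2 it was 0.85, and Nqo1 passed as higher in HDCKO (limma adjusted p = 0.0351). Nqo1 lies on chromosome 8, 108113835 to 108129934, minus strand, in GRCm39.

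WT replicate 2 stood apart in several of these genes. It was the highest WT library for 6 of the 10 genes, namely Nfe2l2, Nqo1, Gclc, Gclm, Txnrd1 and Srxn1, and for 18 of 22 tested genes of the glutathione and thioredoxin list (81.8%), against 37.0% of all genes tested. Relative to the mean of the other WT libraries, its level was 2.71 times for Gclm, 2.53 for Nqo1, 1.66 for Srxn1 and 1.55 for Txnrd1, but 0.909 for Hmox1, 0.981 for Mt1 and 1.05 for Mt2. Osgin1, another NRF2 target chosen after its values were seen, was 5.86, 23.1 and 4.47 FPKM in the WT mice, and did not pass the test between the groups (limma adjusted p = 0.177). Summed neutrophil markers were 14434 FPKM in WT replicate 2 and 3957 and 2458 in WT replicates 1 and 3. Their part in these values was not tested. Without WT replicate 2, the count of members that fell was again 8.

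Enzymes of NADPH supply and detoxification, 14 listed and all tested, fell in 9 cases (64.3%, against 42.6% of all genes tested) and rose in 3 (21.4% against 17.8%), with a median log2 change of -1.26. Ugdh, which makes UDP-glucuronate, fell by 3.00, Pgd of the pentose phosphate pathway by 2.74, the carbonyl reductase Cbr3 by 2.12 and cytosolic Idh1 by 1.38 on the log2 scale. Malic enzyme Me1, another source of NADPH, rose to 59.1 ± 8.06 from 14.0 ± 1.42 FPKM (log2 change 2.03, limma adjusted p = 4.7e-04), and the epoxide hydrolase Ephx1 rose by 1.38 and Cbr1 by 0.45. The count of 9 was 5 without HDCKO replicate 2 or WT replicate 3. The call of Cbr1 was lost without HDCKO replicate 2 or any 1 WT replicate (limma adjusted p from 0.0935 to 0.165).

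Hmox1 had the largest change and the largest spread among HDCKO mice. It was 11.9, 63.8 and 105 FPKM in the HDCKO mice, against 1231, 930.2 and 816 in the WT mice. HDCKO replicate 1 was far below the other HDCKO libraries, and even the highest HDCKO library was far below the lowest WT library. The means were 60.3 ± 46.7 and 993 ± 215 FPKM (SD, n = 3 each), so WT held 16.4 times the HDCKO level. The log2 change was -4.48 (SE 0.77, limma adjusted p = 0.00597), and -3.57 without HDCKO replicate 1 and -5.11 without HDCKO replicate 3. Hmox1 (ENSMUSG00000005413) lies on chromosome 8, 75820241 to 75827217, plus strand, in GRCm39. The ratio of Hmox1 to Nfe2l2 was 0.817, 3.43 and 4.81 in the HDCKO mice, against 30.7, 17.97 and 21.1 in the WT mice (log2 difference -3.25, exact two-sided permutation p = 0.1, the smallest possible). Hmox1 thus fell further than Nfe2l2 in all 3 HDCKO mice relative to all 3 WT mice.

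Summed macrophage markers were lower in HDCKO as Hmox1 was, and stood in the same order as Hmox1 in the 3 HDCKO libraries but not in the WT libraries. HDCKO replicate 1, the lowest in both, was also the lowest HDCKO library for 65.3% of all genes tested, so its low place was not particular to them. The marker sum was 261, 793 and 2172 FPKM in the HDCKO mice, against 2942, 2672 and 3052 in the WT mice. Of the 10 markers, 6 fell (60%, against 42.6% of all genes tested) and 4 did not pass. Per 1000 FPKM of these markers, a measure added after the data were seen, Hmox1 was 45.8, 80.5 and 48.5 FPKM in the HDCKO mice, against 419, 348 and 267 in the WT mice. The groups did not overlap, and the log2 difference was -2.56 (exact two-sided permutation p = 0.1, the smallest possible). Measured the same way, Keap1 was higher in every HDCKO library than in every WT library, and the groups overlapped in the other 8 genes. On this measure the log2 difference turned positive for Nfe2l2 (0.68), Gclc (0.67) and Txnrd1 (0.71), each with an exact two-sided permutation p of 0.6. HDCKO replicate 3 held 75.2% of the mean WT marker sum and 10.6% of the mean WT Hmox1 level.

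**Figure D4:**
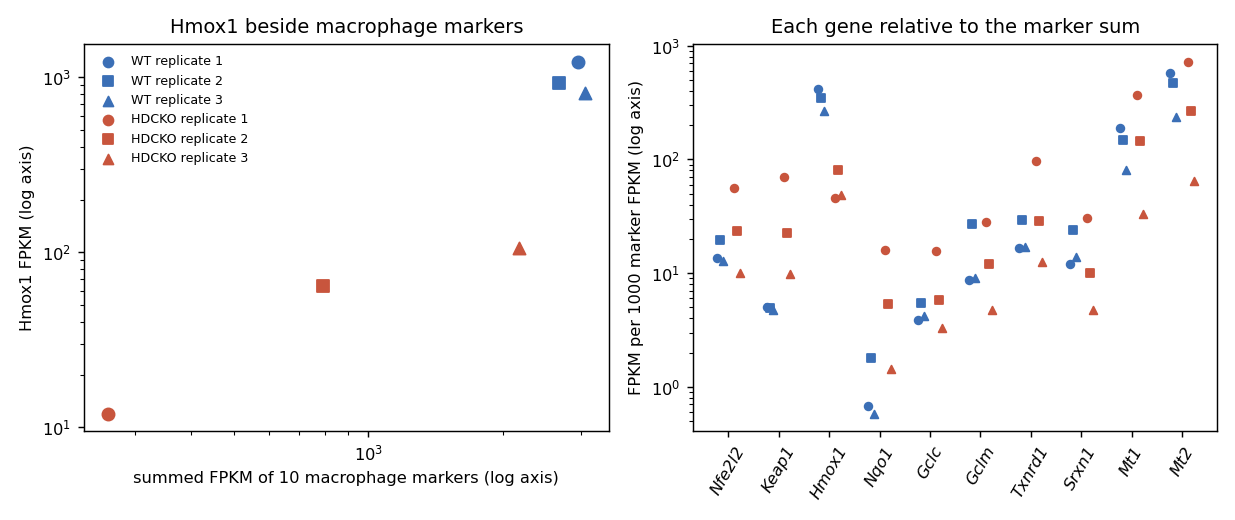
Left, Hmox1 FPKM against the summed FPKM of 10 macrophage markers in each library (log axes); right, each gene's FPKM per 1000 FPKM of these markers (log axis), colours and symbols as on the left. HDCKO replicate 3 has a marker sum of 2172 FPKM, near the WT libraries, with Hmox1 at 105 FPKM, and only Hmox1 is lower in every HDCKO library than in every WT library on the right.

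Genes of haem and iron beside Hmox1 fell in 6 of 10 cases (60%, against 42.6% of all genes tested) and rose in 2 (20% against 17.8%), with a median log2 change of -1.23. The ferritin light chain Ftl1, which stores the iron that haem breakdown frees, was 909 ± 659 against 4652 ± 717 FPKM (log2 change -2.65, limma adjusted p = 0.0136). The heavy chain Fth1 (-1.26), biliverdin reductase Blvrb (-1.94) and the lysosomal haem transporter Slc48a1 (-1.26) fell as well. Alas1, the first enzyme of haem synthesis, rose by 1.39 and the transferrin receptor Tfrc by 1.21. Blvra, the other biliverdin reductase, was 11.9 ± 7.81 against 24.8 ± 3.24 FPKM (limma adjusted p = 0.0529), and the iron exporter Slc40a1 was 9.93 ± 2.47 against 21.7 ± 23.3 (limma adjusted p = 0.468). The call of Fth1 was lost under median-of-ratios scaling (log2 change -0.72, limma adjusted p = 0.103), with fibre and mitochondrial genes left out of the total (0.0505), and without HDCKO replicate 2 (0.0628), WT replicate 1 (0.0630) or WT replicate 2 (0.0822). That of Blvrb was lost without HDCKO replicate 2 or any 1 WT replicate (limma adjusted p from 0.0506 to 0.0622). With no filter on low values, neither Fth1 (limma adjusted p = 0.317) nor Ftl1 (0.0552) passed. Blvra passed without HDCKO replicate 3 (limma adjusted p = 0.00219). The 6 that fell numbered 2 without WT replicate 1 and 3 without HDCKO replicate 2 or either of WT replicates 2 and 3. Ferritin genes have many processed pseudogenes, and the treatment of reads that fit several copies is not stated in the labels, so their values are uncertain.

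Both metallothioneins were lower in HDCKO, and Mt2 more so than Mt1. Mt2 was 189.6, 212 and 139.8 FPKM in the HDCKO mice, against 1684, 1257 and 714 in the WT mice. The WT libraries spread widely, with replicate 1 the highest, and all lay above the HDCKO libraries. The means were 180.3 ± 36.8 and 1218 ± 486 FPKM (SD, n = 3 each), with a log2 change of -2.69 (SE 0.36, limma adjusted p = 0.00276). Mt1 was 96.0, 115 and 71.5 FPKM in the HDCKO mice, against 562, 398 and 249 in the WT mice. Within each group the libraries stood in the same order as for Mt2, and the log2 change was -2.04 (SE 0.35, limma adjusted p = 0.00559). In GRCm39, Mt2 (ENSMUSG00000031762) lies on chromosome 8, 94898819 to 94900207, and Mt1 (ENSMUSG00000031765) at 94905710 to 94906955, both on the plus strand.

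The ratio of the metallothioneins was tight within each group. Mt2 over Mt1 was 1.98, 1.84 and 1.95 in the HDCKO mice, against 3.00, 3.16 and 2.87 in the WT mice. The means were 1.92 ± 0.0710 and 3.01 ± 0.146 (SD, n = 3 each), far apart for their spread (log2 difference -0.65, exact two-sided permutation p = 0.1, the smallest possible). The log2 difference lay between -0.68 and -0.61 when any 1 library was left out. Mt1 and Mt2 are close relatives, and the sources used here do not say which of them was given a read that fits both. The window with 4 MRE cores and an ARE core was that of Mt2, and the window of Mt1 held 3 MRE cores and no ARE core. Whether these motifs bear on the ratio was not tested.

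Other genes of zinc handling gave shares near those of all genes: 4 of 9 fell (44.4%, against 42.6% of all genes tested) and 1 rose (11.1% against 17.8%), with a median log2 change of -0.98. The 4 that fell import zinc and other metals into the cytosol. Slc39a14, which is raised in inflammation, was 2.65, 3.83 and 4.79 FPKM in the HDCKO mice, against 39.6, 30.5 and 31.7 in the WT mice. Every HDCKO library was far below WT (log2 change -3.04, SE 0.23, limma adjusted p = 4.3e-04). Slc39a1 (-1.58), Slc39a10 (-1.02) and Slc39a8 (-0.98) fell less, and the call of Slc39a8 was lost without HDCKO replicate 2 (limma adjusted p = 0.0669), WT replicate 1 (0.0574) or WT replicate 3 (0.0687). Slc30a2, which moves zinc into vesicles, rose from 0.164 ± 0.124 to 4.59 ± 2.37 FPKM (log2 change 2.85, limma adjusted p = 0.00244). Its WT values were 0.306, 0.0774 and 0.108 FPKM, all below the pseudocount, the constant added to FPKM before taking logs. The pseudocount narrows the WT spread of Slc30a2 and lowers its log2 change, so the size of that change and its p-value are uncertain. Every HDCKO library was above every WT library.

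The metal-sensing factor and a zinc exporter that it controls did not pass on the deposited values. Mtf1 was 3.00 ± 0.260 in HDCKO and 3.88 ± 0.152 FPKM in WT (log2 change -0.32, limma adjusted p = 0.0802). Slc30a1, that exporter, was 6.93 ± 1.38 against 6.95 ± 0.190 FPKM (log2 change -0.02, limma adjusted p = 0.921). Slc30a1 passed as higher in HDCKO with median-of-ratios scaling (log2 change 0.47, limma adjusted p = 0.0246) and quantile normalization (0.40, limma adjusted p = 0.0409), while Mt1 and Mt2 still passed as lower. Of the remaining metallothioneins, Mt3 was 9.15 ± 4.37 against 11.3 ± 0.834 FPKM (limma adjusted p = 0.316). Mt4 was listed at 0, 0.607 and 0.408 FPKM for HDCKO and 3.92, 6.20 and 0.345 in the WT mice (limma adjusted p = 0.0802). Each of these 3 passed as lower with 1 library left out, Mtf1 without HDCKO replicate 3 (log2 change -0.37, limma adjusted p = 0.0394), Mt3 without HDCKO replicate 2 (-0.73, limma adjusted p = 0.0428) and Mt4 without WT replicate 3 (-2.78, limma adjusted p = 0.0121).

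**Figure D5:**
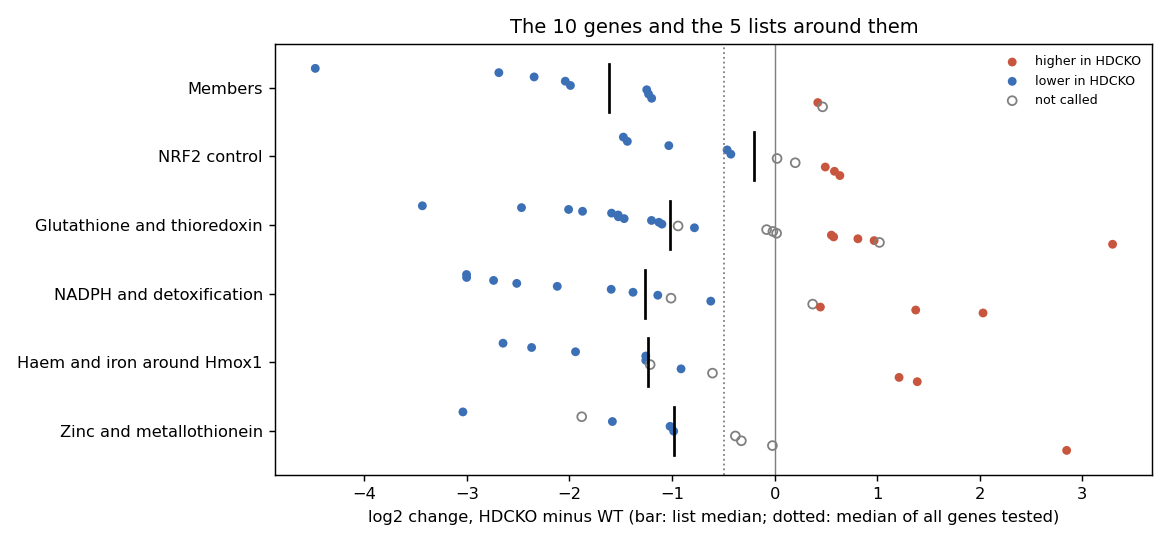
Log2 change (HDCKO minus WT) of the 10 genes and of the tested genes in 5 lists around them; filled points passed the test, bars are list medians and the dotted line is the median of all genes tested (-0.50). List medians run from -0.20 for NRF2 control to -1.26 for NADPH and detoxification.

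The 10 genes differed in how alike their patterns were. Likeness was measured as the root mean square difference of log2 values over the 6 libraries after taking off each gene's mean, so 0 is an identical pattern. Nfe2l2 and Gclc were the closest pair (0.12), followed by Nfe2l2 and Txnrd1 (0.18), Gclc and Txnrd1 (0.22), Gclm and Srxn1 (0.31) and Mt1 and Mt2 (0.33). Hmox1 and Nqo1 were the farthest apart (2.71). Among all 13287 other genes tested, the 5 most like Nfe2l2 were Tm9sf3, Emp2, Osbpl9, Cdc42ep4 and Arrdc4 (0.061 to 0.069). Gclc ranked 84 and Txnrd1 442 in that order, so many other genes were closer to Nfe2l2 than either. Those most like Hmox1 were Ccl6, Wfdc17, Pf4, Bst1 and Ccl9 (0.27 to 0.37), and those most like Mt2 included Nt5e, Fcrlb, Fgf7 and Thbd (0.26 to 0.30). Fcrlb was 0, 0.0118 and 0.0924 FPKM in the HDCKO mice, all below the pseudocount. Its HDCKO mean was 1.30% of its WT mean, against 14.8% for Mt2. The likeness of Fcrlb to Mt2 thus depends on the pseudocount. Since the groups differ in most genes, this measure is led by the size of the change between groups.

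The order of levels differed between the groups. In WT, Mt2 and Hmox1 came first with overlapping ranges, then Mt1, then Txnrd1, Srxn1, Nfe2l2 and Gclm, whose neighbouring ranges overlapped, then Keap1 and Gclc, which also overlapped, and Nqo1 last. In HDCKO, Mt2 came first and clear of the rest, then Mt1 and Hmox1 with overlapping ranges, then Txnrd1, whose range overlapped that of Hmox1. Keap1 and Nfe2l2 followed with overlapping ranges, then Gclm and Srxn1, and last Gclc and Nqo1, both pairs overlapping. By group mean, Keap1 ranked 8 in WT and 5 in HDCKO, and Hmox1 ranked 2 and 3. The HDCKO range of Hmox1 (11.9 to 105 FPKM) also spanned those of Keap1 and Nfe2l2, so its rank there is uncertain.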

How the data were processed

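The authors deposited 1 table of FPKM values for the 6 libraries, with 25572 genes. The submitters' processing notes name FastQC 0.11.9, HISAT2 2.1.0, STAR 2.7.11b, HTSeq 0.11.2, DESeq2 1.22.2 and build GRCm39. The aligner behind the values, and any use of strand in counting, are not given in these sources. The library columns were matched to samples by their titles. Genes with a mean FPKM of at least 0.5 were kept (13288), and log2(FPKM + 0.5) was compared between 3 HDCKO and 3 WT libraries with limma 3.58.1 (trend, R 4.3.3) and Benjamini-Hochberg adjustment over all genes tested, with 0.05 as the threshold. The pseudocount lowers the fold change of low genes. The fit was tested on simulated data with known changes. Depth was estimated from what 1 fragment is worth in single-exon genes with low FPKM, and no interval was computed from it. Ratios were compared by exact permutation over libraries. With 3 libraries a group, p-values measure the spread between these mice only. The members and lists were chosen with earlier results of these data known. Named genes were the 10 members, up to 6 genes per list with the smallest p and exceptions to a list's direction, and the 5 genes most like Nfe2l2, Hmox1 and Mt2. For Mt2, 1 of these is not reported here. Others are said to be chosen after their values were seen. Alternatives were 2 other pseudocounts, 2 other filters, 3 other scalings, array weights, a replicate block and leaving out each library.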

Additional observations from a re-analysis of the deposited data

How the results depend on the processing

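The 8 members that fell were 8 in each fit that left out 1 library, with either other pseudocount or filter, and with every scaling except median-of-ratios, where Txnrd1 missed the threshold. The count of members that rose was 2 with array weights, whose estimation stopped before it converged, and 0 to 1 when 1 library was left out. Lower genes numbered 3457 of all genes under median-of-ratios scaling, 3737 with the total taken without fibre and mitochondrial genes, and 2507 to 7288 when 1 library was left out. In the NRF2 control list, lower genes numbered 1 under median-of-ratios scaling, 2 under quantile normalization and 3 with the total taken without fibre and mitochondrial genes. Leaving out 1 library gave 3 to 5 lower and 0 to 3 higher genes in that list, 3 to 5 higher glutathione and thioredoxin genes, 5 to 9 lower NADPH and detoxification genes and 2 to 7 lower haem and iron genes. Higher zinc genes numbered 2 under median-of-ratios scaling and 2 under quantile normalization. The causes were not tested, beyond the fewer libraries of each such fit.

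The log2 change turned sign in 5 genes that had not passed, and in 3 members that had passed. Rbx1 was -0.0412 with array weights and from -0.00441 (without HDCKO replicate 1) to 0.0510 with 1 library left out. Slc40a1 was 0.0798 with array weights and from -1.07 to 0.22 (without WT replicate 2) with 1 library left out. Mtf1 was 0.14 under median-of-ratios scaling and 0.0581 under quantile normalization, and Mt3 was 0.12 and 0.0623 in the same fits and 0.29 with array weights. Slc30a1 was 0.47 under median-of-ratios scaling, 0.40 under quantile normalization, 0.27 with the total taken without fibre and mitochondrial genes, 0.10 with array weights and from -0.12 to 0.14 (without HDCKO replicate 1) with 1 library left out. The 3 members turned sign relative to macrophage markers, where Nfe2l2 was 0.68, Gclc 0.67 and Txnrd1 0.71.

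Deviations of libraries with the same replicate number correlated weakly (0.12, 0.07 and 0.14), and for each WT library this was the highest correlation. HDCKO replicate 2, however, correlated better with WT replicate 1 (0.11) than with WT replicate 2. The labels name no pairing, so the numbers were not taken to pair the mice, and a fit with a replicate block is given as an alternative. With a replicate block, 8 members were lower and 0 higher (Keap1, limma adjusted p = 0.0830), Btrc (0.0627), Txn2 (0.0643), Gpx4 (0.0614) and Cbr1 (0.108) no longer passed, Blvra passed (0.0434), 3 NRF2 control genes were lower, and 5089 of all genes were lower and 2081 higher.

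With 3 mice a group, and with all 6 muscles at 1 time point, neither the time course nor the state of uninjured muscle was measured. The table holds no counts, so the counting error of low values such as those of Mt4 and of Slc7a11 in HDCKO was not computed.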

Other observations

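Annotation columns in the deposited table gave terms around glutathione, chosen after the data were seen. These terms overlap with the 10 genes and the lists above, for example in Gclc, Gclm, Gsr and Gpx4, so their counts are not independent of those given above. Of 68 genes under the KEGG term for glutathione metabolism, 50 were tested, 14 rose (28%, against 17.8% of all genes tested) and 19 fell (38% against 42.6%) in HDCKO (limma adjusted p under 0.05), with a median log2 change of -0.27. Mgst3, a membrane-bound glutathione transferase, was 129.9 ± 44.7 in HDCKO and 23.8 ± 2.62 FPKM in WT (SD, n = 3 each), a log2 change of 2.37. Spermine synthase Sms rose by 2.03 and Oplah, which returns oxoproline to glutamate, by 1.64 on the log2 scale. Spermidine synthase Srm fell by 2.33 and Gsto1 by 1.48.

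Of 39 genes under the KEGG term for ferroptosis, an iron-dependent cell death by lipid peroxidation, 37 were tested, 8 rose (21.6%, against 17.8% of all genes tested) and 19 fell (51.4% against 42.6%), with a median log2 change of -0.79. Among the acyl-CoA synthetases, Acsl6 rose by 2.49 and Acsl1 by 1.59, and Acsl4, which loads polyunsaturated fatty acids, fell by 1.65 on the log2 scale. Map1lc3a rose by 2.60. A WikiPathways term on activation by Nfe2l2 holds the factor, its inhibitor, kinases and some targets. Of its 14 genes, 13 were tested, 3 rose (23.1%, against 17.8% of all genes tested) and 6 fell (46.2% against 42.6%), with a median log2 change of -0.26. The members Nfe2l2, Hmox1, Gclc and Gclm are among those that fell, and Keap1 is among those that rose. All genes here were chosen after their values were seen, and the fibre and leukocyte marker sums differed between the groups as given for the 10 genes. Their part in these values was not tested.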
